A study of Mus musculus with 60 samples.

Results

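The genes of the Nrf2 pathway and of antioxidant defence were followed across 3 brain regions of female Balb/C mice, between mid-dark and mid-light, and between tumor-bearing and vehicle injected animals. These 10 genes were Nfe2l2, Keap1, Nqo1, Hmox1, Gclc, Srxn1, Txnrd1, Osgin1, Sod1 and Sod2, taken from the normalized table by their symbols. Of them, 8 had a row among the 770 genes of the table. Keap1 and Sod1 were not analysed here. The mice were 13 weeks old when their tissue was taken, 25 days after an injection into the inguinal mammary glands. Tumor-bearing mice had received 67NR cells, which form mammary tumors without metastases. The line was isolated from 1 spontaneous mammary tumor, and it was the only tumor line used. Vehicle injected mice had received the culture medium alone. All mice were housed singly under 14 h of light and 10 h of dark, and tissue was collected at zeitgeber time (hours after lights on) 7 for mid-light or 19 for mid-dark. Hippocampus, hypothalamus and brain stem came from 20 mice, 5 in each of the 4 combinations of tumor status and time of day.

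Nrf2, the protein that Nfe2l2 encodes, is a transcription factor that Keap1 holds in the cytoplasm and marks for degradation. Oxidants and electrophiles modify Keap1, Nrf2 then accumulates in the nucleus, pairs with small Maf proteins and binds antioxidant response elements of its target genes. In brain the pathway is best known from astrocytes, which supply glutathione precursors to neurons. Among the genes measured, Nqo1 encodes a quinone reductase, Hmox1 the heme-degrading heme oxygenase 1, Gclc the catalytic subunit of the enzyme that starts glutathione synthesis, Srxn1 the sulfiredoxin that restores overoxidized peroxiredoxins and Txnrd1 the cytosolic thioredoxin reductase. Osgin1 encodes a growth inhibitor induced by oxidative stress, and Sod2 the superoxide dismutase of mitochondria, which is controlled by other factors besides Nrf2.

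The core of the antioxidant response element, TGACNNNGC, was searched on both strands of RefSeq promoter windows of GRCm38.p6, each of 300 bases, 250 before to 50 after an annotated start. A window was given for 6 of the 8 measured genes, and 3 of these genes, Nfe2l2, Srxn1 and Txnrd1, had the core in 1 window. The core was in 12.4% of all 32851 windows. The 3 matches are shown because this core is the sequence that Nrf2 is known to recognize. They are written on the strand of the gene, with the core in capitals:
Nfe2l2, chr2:75704885-75704913, minus strand: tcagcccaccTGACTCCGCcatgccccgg
Srxn1, chr2:152105542-152105570, plus strand: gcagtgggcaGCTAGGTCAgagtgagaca
Txnrd1, chr10:82859104-82859132, plus strand: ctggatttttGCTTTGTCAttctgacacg
The core of Nfe2l2 ran on the strand of the gene, from 240 to 232 bases before the start. The core of Txnrd1 ran on the opposite strand, from 92 to 84 bases before the start, and the other 2 windows of this gene had none. The core of Srxn1 also ran on the opposite strand, 29 to 37 bases into the transcript. The windows of Nqo1, Osgin1 and Sod2 held no match to these letters, which is a statement on these windows alone. The E-box CACGTG, through which clock proteins bind, was in none of the 8 windows of the measured genes, and in 7.15% of all windows.

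Of the 60 samples in the labels, 56 had values. The other 4, which the labels call outliers, were not analysed here. They all came from vehicle injected mice and left that group with 4 mid-dark brain stem samples, 3 mid-dark hypothalamus samples and 4 mid-light hypothalamus samples, beside 5 in every other group. Values were log2 expression after quantile normalization, and sample medians lay between 8.07 and 8.09. No value of the 8 genes lay at the lowest value of the table. Since quantile normalization gives every sample nearly the same set of values, samples can share a value: Sod2, among the brighter genes, had 17 distinct values in 56 samples, against 42 for Srxn1. The genes that mark hippocampal excitatory neurons and those of deeper regions followed the labelled regions. RNA purity was judged here by 1 absorbance ratio of the labels, called the purity ratio. It was under 1.7 in 3 of 5 brain stem samples of tumor-bearing mice at mid-dark (lowest 1.34). At mid-light it was under 1.7 in 1 of 5 (1.51), and this held for no sample of any other group. The labels also give another absorbance ratio, to which no limit was applied. Its lowest values were in hypothalamus samples of tumor-bearing mice, those of mouse 1 at mid-light and mouse 7 at mid-dark. Low purity therefore refers to the purity ratio alone.

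Most of the 8 genes differed more between regions than between times of day or tumor status. Srxn1 was at 10.20 ± 0.16 (SD, n = 20 samples) in hippocampus, 10.78 ± 0.13 (n = 17) in hypothalamus and 11.01 ± 0.097 (n = 19) in brain stem, on the normalized log2 scale. The highest Srxn1 value in hippocampus was 10.66 and the lowest in brain stem was 10.84, so those 2 regions did not overlap. In a fit over the 3 regions by limma, which borrows the spread across all genes and treated the mouse as a random block, Srxn1 was higher in brain stem than in hippocampus by 0.82 (SE 0.035, 1.76-fold, adjusted p = 1.62e-26), and lower in hippocampus than in hypothalamus (difference -0.59, adjusted p = 4.51e-20).

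**Figure D1:**
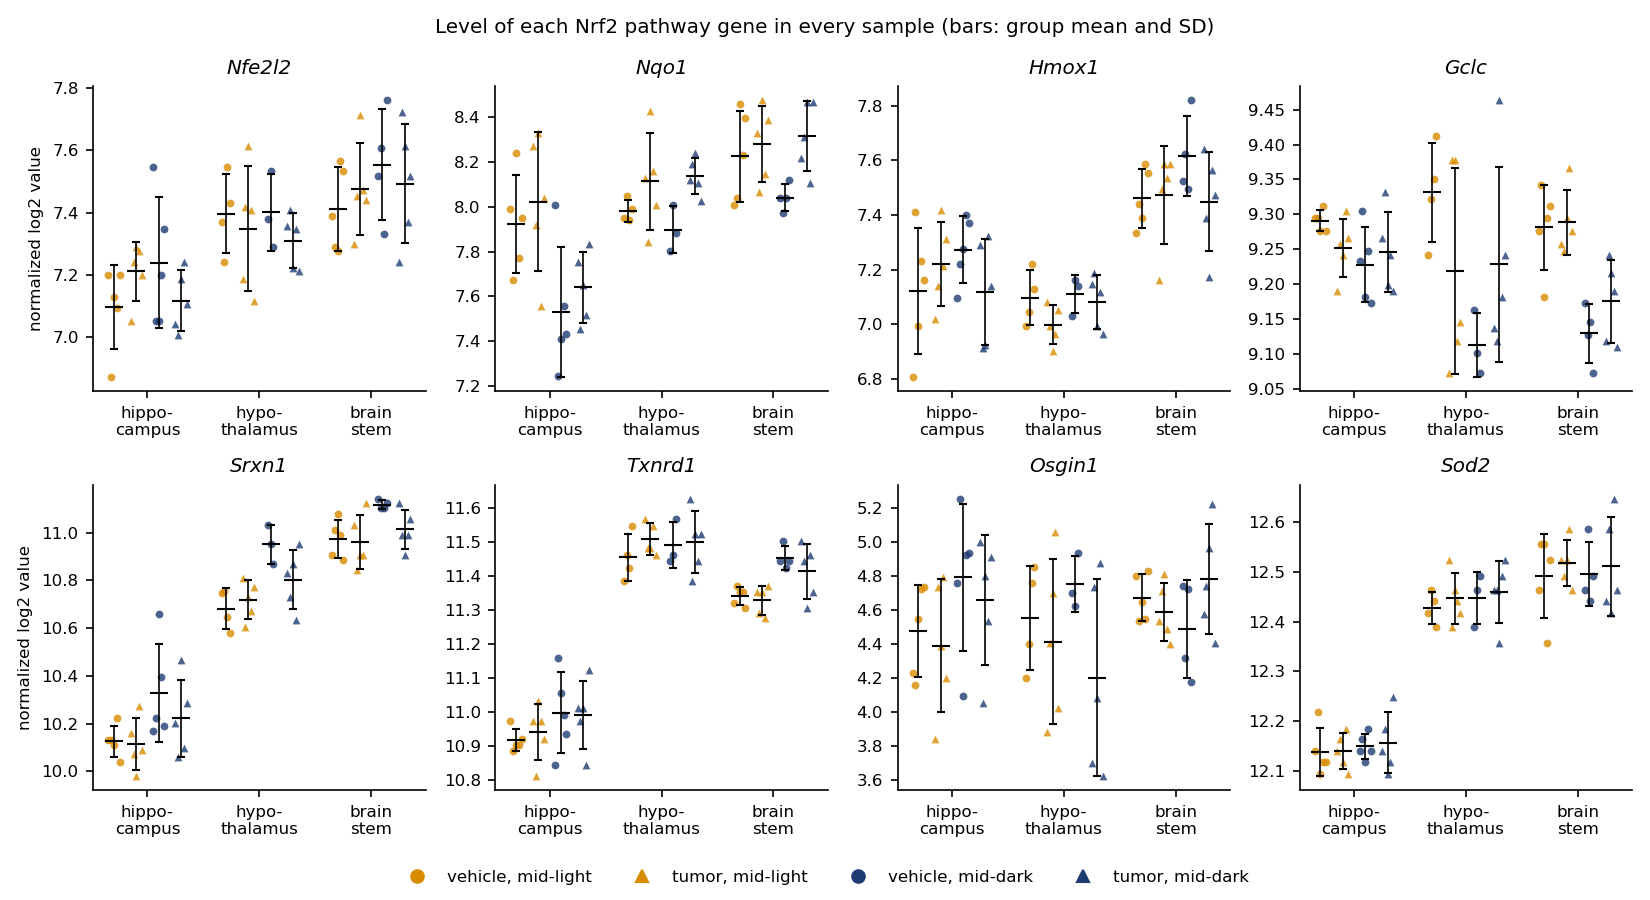
Normalized log2 value (y axis) of each of the 8 genes in every sample, by region (x axis); circles are vehicle injected and triangles tumor-bearing mice, orange mid-light and blue mid-dark, and black bars give the mean and SD of each group. The y axes differ between genes and do not start at 0. The 20 hippocampus samples of Sod2 lie between 12.09 and 12.25, below all hypothalamus and brain stem samples.

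Txnrd1 and Sod2 had their lowest levels in hippocampus. Txnrd1 was at 10.96 ± 0.089 (SD, n = 20) in hippocampus, 11.38 ± 0.070 (n = 19) in brain stem and 11.49 ± 0.067 (n = 17) in hypothalamus, and all hippocampus samples lay below all others (at most 11.16, against at least 11.28). Sod2 was at 12.15 ± 0.042 (n = 20) in hippocampus, 12.45 ± 0.048 (n = 17) in hypothalamus and 12.50 ± 0.071 (n = 19) in brain stem. The hippocampus again did not overlap with either region, as its highest Sod2 value was 12.25 and the lowest elsewhere was 12.36.

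Nqo1, Nfe2l2 and Hmox1 were highest in brain stem. In hippocampus Nqo1 was at 7.78 ± 0.31 (SD, same n), in hypothalamus at 8.05 ± 0.16 and in brain stem at 8.23 ± 0.18, with overlap between all regions. Nfe2l2, the gene of the factor itself, was at 7.17 ± 0.14, 7.36 ± 0.14 and 7.48 ± 0.16 in the same order. Its order was that of Nqo1, Srxn1 and Sod2, but not that of Txnrd1, which was highest in hypothalamus. Hmox1 was lowest in hypothalamus, at 7.07 ± 0.091, next in hippocampus, at 7.18 ± 0.18, and highest in brain stem, at 7.49 ± 0.16.

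By the adjusted p under 0.05, which is what "called" means here, 6 of the 8 genes were called in each of the 3 region pairs. All genes of the table were called at a like rate, 71.7% for hippocampus against hypothalamus, 76.6% for brain stem against hippocampus and 66.5% for brain stem against hypothalamus, so the count of 6 is near the background. Brain stem was above hippocampus for all 6 genes, with differences from 0.32 (Nfe2l2, SE 0.044, and Hmox1, SE 0.044) to 0.82. Hippocampus was below hypothalamus for 5 of the 6, and Hmox1 was the exception at 0.11 (SE 0.045, adjusted p = 0.0290). This Hmox1 call was lost without any one of mice 6, 9, 19, 23 and 28 (adjusted p from 0.0552 to 0.0892) and in vehicle injected mice alone (0.090, adjusted p = 0.256). Between brain stem and hypothalamus, Hmox1 differed the most, by 0.43 (SE 0.046), Sod2 by 0.058 (SE 0.021) and Nfe2l2 by 0.12 (SE 0.047, adjusted p = 0.0243). The Nfe2l2 call in this pair was lost without mouse 11, 29 or 32 (adjusted p from 0.0518 to 0.0551), and the calls of Nfe2l2, Nqo1, Sod2 and Txnrd1 were lost in vehicle injected mice alone. Txnrd1 was lower in brain stem than in hypothalamus by this fit (difference -0.10, SE 0.025, adjusted p = 0.000306), a direction that turned when samples were centred on the reference genes (0.029, adjusted p = 0.431). That centring moved the median of all genes by 0.13 between these regions, and by 0.11 between hippocampus and hypothalamus, so these differences are relative to the scaling. With it, 7 of the 8 genes were called and higher in brain stem than in hypothalamus, in place of 5 higher and 1 lower, and the call of Nfe2l2 for hippocampus against hypothalamus was lost (-0.091, adjusted p = 0.122).

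Gclc and Osgin1 were not called between any regions in this fit. Gclc was at 9.25 ± 0.048 (SD, n = 20) in hippocampus, 9.23 ± 0.13 (n = 17) in hypothalamus and 9.22 ± 0.084 (n = 19) in brain stem. The largest of its 3 differences, brain stem minus hippocampus, was -0.035 with a 95% interval from -0.085 to 0.015. Centred on the reference genes, Gclc was called and lowest in hypothalamus, by 0.13 against brain stem (adjusted p = 0.000482) and by 0.14 against hippocampus (adjusted p = 0.000156), and without mouse 11 it was at 0.052 for hippocampus minus hypothalamus (adjusted p = 0.0499). Osgin1, the gene with the lowest values of the 8, spanned 3.62 to 5.25 over all 56 samples and had the widest intervals, such as -0.059 to 0.39 for brain stem minus hypothalamus, a difference that was called when centred on the reference genes (0.30, adjusted p = 0.0285).

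Time of day moved 3 of the 8 genes when the 3 regions were fitted together: Srxn1 was higher at mid-dark, and Gclc and Nqo1 were lower. All genes of the table were called in this comparison at 13.5%. The differences were small: Srxn1 rose by 0.14 on the log2 scale (SE 0.035, 1.10-fold, adjusted p = 0.00287), Gclc fell by 0.091 (SE 0.025, 0.939-fold, adjusted p = 0.00969) and Nqo1 fell by 0.17 (SE 0.057, 0.889-fold, adjusted p = 0.0394). Txnrd1 was at 0.060 (SE 0.024, adjusted p = 0.0889), and without the mouse as a block its adjusted p was 0.0442. With unadjusted p under 0.05 counted, the 4 genes named here were the members that passed, against 25.6% of all genes.

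**Figure D2:**
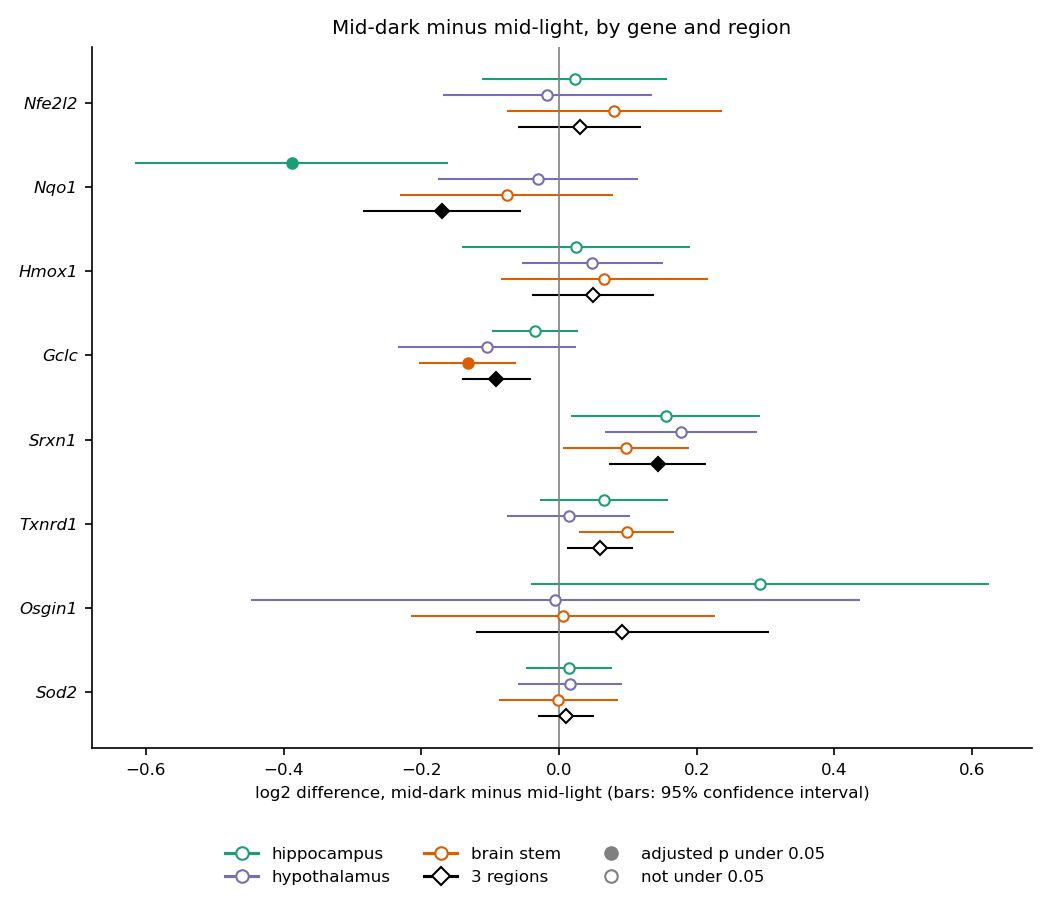
Log2 difference between mid-dark and mid-light (x axis; positive means higher at mid-dark) for each gene (y axis), in each region and over the 3 regions; lines are 95% confidence intervals and filled symbols have an adjusted p under 0.05. Srxn1 lies to the right of 0 in all 3 regions and Gclc to the left, while Nqo1 is far from 0 in hippocampus (-0.39) and near it in hypothalamus (-0.030).

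Srxn1 showed its largest difference in hypothalamus. The 3 mid-dark hypothalamus values of vehicle injected mice were 10.87, 10.95 and 11.03, and the 4 mid-light values 10.58, 10.65, 10.75 and 10.76. In tumor-bearing mice the mid-dark values were 10.63, 10.73, 10.83, 10.87 and 10.95, against 10.61, 10.67, 10.73, 10.77 and 10.81 for mid-light. The vehicle groups did not overlap, whereas the tumor groups did. Averaged over tumor status the hypothalamus difference was 0.18 (SE 0.052, adjusted p = 0.107), the hippocampus difference 0.15 (SE 0.065, adjusted p = 0.206) and the brain stem difference 0.097 (SE 0.043, adjusted p = 0.270), so no single region was called. In brain stem the vehicle groups also stood apart, with mid-dark values of 11.10, 11.10, 11.12 and 11.14 and mid-light values of at most 11.08. The difference was positive in all 6 combinations of region and tumor status, between 0.052 in brain stem of tumor-bearing mice and 0.27 in hypothalamus of vehicle injected mice.

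Gclc was lower at mid-dark in brain stem, the region in which it was called. The mid-dark brain stem values of vehicle injected mice, 9.07, 9.13, 9.15 and 9.17, were followed by mid-light values of 9.18, 9.28, 9.29, 9.31 and 9.34. Tumor-bearing mice had mid-dark values of 9.11, 9.12, 9.19, 9.22 and 9.24, against mid-light values of 9.25, 9.26, 9.28, 9.29 and 9.37. In neither tumor status did the 2 times overlap. The brain stem difference was -0.13 (SE 0.033, 0.912-fold, adjusted p = 0.0252), with values of -0.15 in vehicle injected and -0.11 in tumor-bearing mice. It was called without any one of 13 of the 19 mice with a brain stem sample, and not without mice 3, 6, 12, 13, 30 or 32 (adjusted p up to 0.0596). Without the 4 samples with a purity ratio under 1.7, which all were brain stem samples of tumor-bearing mice, the difference was -0.11 (adjusted p = 0.248). In hypothalamus the vehicle groups, of 3 and 4 samples, did not overlap either, at 9.07 to 9.16 against 9.24 to 9.41. The larger tumor groups did overlap, and the difference over both tumor statuses was -0.10 (SE 0.061, adjusted p = 0.497). In hippocampus it was -0.035 (SE 0.030, adjusted p = 0.609).

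Nqo1 was lower at mid-dark in hippocampus. The mid-dark values of vehicle injected mice there were 7.24, 7.41, 7.43, 7.56 and 8.01, against mid-light values of 7.67, 7.77, 7.95, 7.99 and 8.24. In tumor-bearing mice the mid-dark values were 7.45, 7.52, 7.65, 7.75 and 7.83, and those of mid-light 7.56, 7.92, 8.04, 8.27 and 8.33. The 2 times overlapped in both, through 1 high mid-dark sample in the vehicle group and 1 low mid-light sample in the tumor group. The hippocampus difference was -0.39 (SE 0.11, 0.764-fold, adjusted p = 0.0429) and had nearly the same size in vehicle injected (-0.40) and tumor-bearing mice (-0.38). It was -0.030 (SE 0.068) in hypothalamus and -0.076 (SE 0.073) in brain stem. The difference between regions was not called: hippocampus minus hypothalamus was -0.35 (SE 0.12, adjusted p = 0.333) and brain stem minus hippocampus 0.31 (SE 0.11, adjusted p = 0.533). Over all genes, 0.39% were called in the first of these, 0.13% in the second and 0% for brain stem minus hypothalamus. The hippocampus call held without any one of mice 4, 6, 13 and 23 and was lost without any one of the other 16 (adjusted p between 0.0532 and 0.0817 then), with a difference between -0.45 and -0.35 over all 20 such fits. Over the 3 regions, leaving out any one of mice 1, 3, 7, 9, 10, 12, 19, 28, 29, 30 and 32 ended the call of Nqo1, with a difference as small as -0.14, and so did leaving out the samples with a purity ratio under 1.7 (-0.15, adjusted p = 0.0958).

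Levels of choroid plexus and oligodendrocyte marker genes also varied between samples. In bulk tissue fewer cells of a type and less RNA per cell cannot be told apart. Ttr, which choroid plexus makes in large amounts, ranged from 5.36 to 14.71 in hippocampus. The summed level of the 2 choroid plexus and ependyma markers measured there was between 6.48 and 14.72 (median 12.33) at mid-dark and between 7.72 and 14.59 (median 13.48) at mid-light, and 0 of the 2 were called. Nqo1 was at 7.67 or below in all 5 hippocampus samples with a Ttr value under 8, and also in 4 of the other 15, all mid-dark, with 7.24 as the lowest. With Ttr as a covariate, the Nqo1 difference in hippocampus was -0.33 (SE 0.086, adjusted p = 0.0358).

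Several myelin genes were lower at mid-dark. In hippocampus 4 of 8 oligodendrocyte markers were called and lower, with a median over the 8 of -0.40 (all genes 0.011), and their summed level was 14.41 to 15.53 (median 15.14) at mid-dark and 15.12 to 15.76 (median 15.55) at mid-light. In brain stem 4 of the 7 markers that could be tested were called and lower, with a median of -0.21 (all genes 0.0034), and the summed level was 16.40 to 16.52 at mid-dark and 16.46 to 16.59 at mid-light. Opalin, a myelin membrane protein, moved the most and was called in every region (-1.07 in hippocampus, -1.23 in brain stem and -1.05 in hypothalamus), and in hypothalamus it was the 1 called marker of 8. The lineage factor Sox10 was at -0.086, 0.049 and 0.17 in the same order. With the summed level of these markers as a covariate, the Nqo1 difference in hippocampus was -0.33 (SE 0.13, adjusted p = 0.260). The Gclc difference in brain stem was then -0.11 (SE 0.047, adjusted p = 0.416). Since several of these markers were themselves lower at mid-dark, this covariate cannot be fully separated from time of day. Calls lost with it therefore do not show a part of these cells. No oligodendrocyte, choroid plexus or ependyma marker lay at the lowest value of the table in any sample, and the part of these cells in the results was not tested further. Of the markers of astrocytes (9), microglia (9), border macrophages (5) and neurons (6), none was called for time of day within any region, and of 8 endothelial markers 1 was higher at mid-dark in hippocampus and 1 in brain stem.

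**Figure D3:**
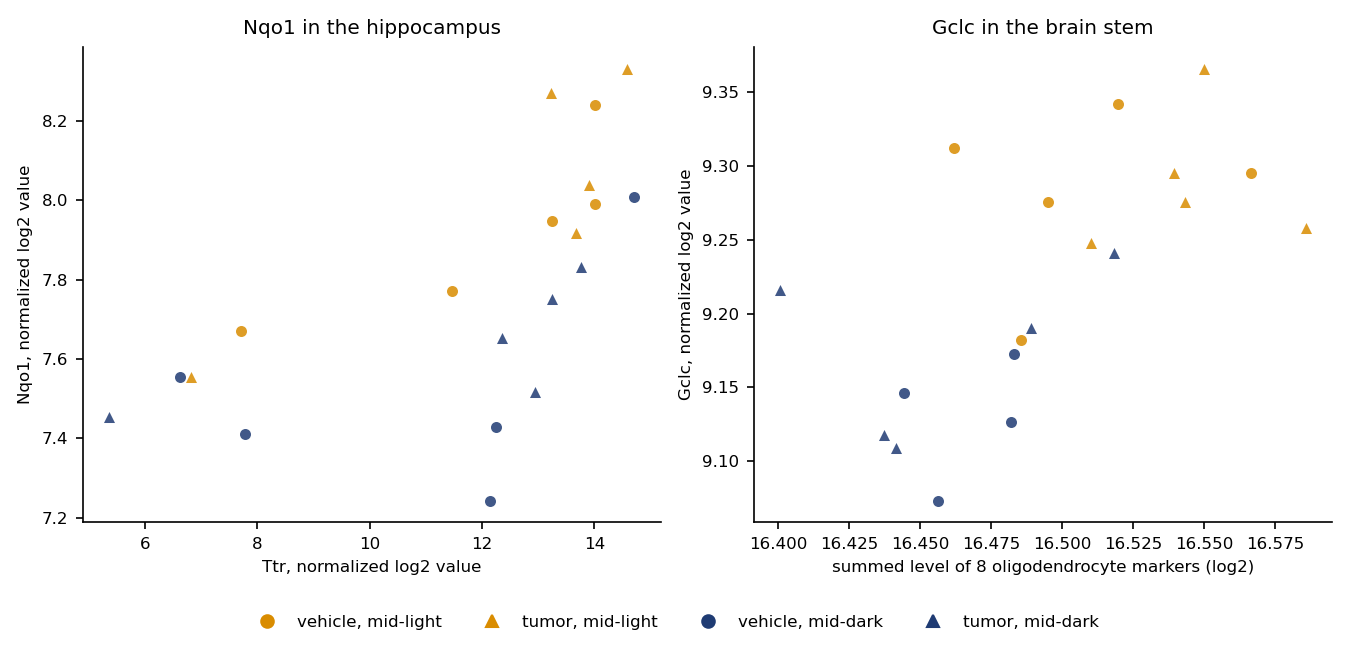
Left, Nqo1 against Ttr in the 20 hippocampus samples; right, Gclc against the summed level of 8 oligodendrocyte markers in the 19 brain stem samples; all axes are log2 values, circles are vehicle injected and triangles tumor-bearing mice, orange mid-light and blue mid-dark. Nqo1 is at 7.67 or below in the 5 samples with Ttr under 8, where the 3 mid-dark samples span 7.41 to 7.56 and the 2 mid-light samples 7.56 to 7.67. On the right, the mid-dark samples lie at 16.40 to 16.52 and at Gclc values of at most 9.24.

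The remaining genes gave no call for time of day. Txnrd1 was higher at mid-dark in brain stem by 0.098 (SE 0.033, adjusted p = 0.117), where its mid-dark values in vehicle injected mice, 11.42, 11.44, 11.44 and 11.50, did not overlap with the mid-light values of 11.31 to 11.37. Nfe2l2 was at 0.030 over the 3 regions with a 95% interval from -0.059 to 0.12, and Hmox1 at 0.049 (interval -0.039 to 0.14). Sod2 had the narrowest interval, -0.030 to 0.050, around 0.010. Osgin1 was at 0.29 in hippocampus (SE 0.16, adjusted p = 0.331) and at 0.092 over the 3 regions (SE 0.11).

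Within regions, all genes were called for time of day at 5.59% in hippocampus (18.7% at an unadjusted p under 0.05), 2.34% in hypothalamus (13.2%) and 4.94% in brain stem (15.9%). The 8 genes had 1 call each in hippocampus and brain stem and 0 in hypothalamus. At an unadjusted p under 0.05 they were 2 in hippocampus (Nqo1 and Srxn1), 1 in hypothalamus (Srxn1) and 3 in brain stem (Gclc, Srxn1 and Txnrd1). Of the 48 pairs of a gene with a region and a tumor status, 6 had no overlap between mid-dark and mid-light, against 4.11% of the pairs of all genes. That rate pools all group sizes, and the smaller vehicle groups of hypothalamus and brain stem stand apart more readily. These 6 were Gclc in brain stem in both tumor statuses and, in vehicle injected mice, Gclc in hypothalamus, Srxn1 in hypothalamus and in brain stem, and Txnrd1 in brain stem.

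None of the 8 genes was called for tumor status. The comparison was made within each region at each time of day, averaged over both times, and over the 3 regions, and limma called 0 of the 8 genes in each of these 10 comparisons. All genes of the table were also called at low rates. In hippocampus they were called at 0.13% at mid-dark, 0.13% at mid-light and 0.52% averaged, in hypothalamus at 0%, 0% and 0.26%, and in brain stem at 0.26%, 0.78% and 1.04%. Over the 3 regions the rate was 2.34%.

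At an unadjusted p under 0.05, Nqo1 was the only member that passed in any of these comparisons. It passed in 5 of them: hypothalamus and brain stem at mid-dark, the same regions averaged over both times, and the 3 regions together. The rates over all genes at this threshold were 6.63%, 6.89% and 6.37% for hippocampus at mid-dark, at mid-light and averaged, 4.81%, 5.19% and 7.14% for hypothalamus, 7.28%, 4.81% and 6.5% for brain stem, and 9.48% over the 3 regions.

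In hypothalamus at mid-dark, Nqo1 was at 8.03, 8.11, 8.12, 8.19 and 8.24 in tumor-bearing mice and at 7.80, 7.88 and 8.01 in vehicle injected mice. All tumor values lay above all vehicle values, though the nearest samples, at 8.03 and 8.01, were close. This was the 1 of 48 gene, region and time combinations in which tumor and vehicle groups did not overlap, against 1.88% over all genes. That rate pools all group sizes, and this vehicle group, with 3 samples, was the smallest. The Nqo1 difference between tumor and vehicle here was 0.24 (SE 0.10, adjusted p = 0.888). The tumor value of 8.19 came from mouse 7, whose sample was low in the absorbance ratio to which no limit was applied. In brain stem at mid-dark, the tumor values of 8.11, 8.22, 8.31, 8.47 and 8.47 and the vehicle values of 7.97, 8.04, 8.04 and 8.12 overlapped by 1 sample, with a difference of 0.27 (SE 0.11, adjusted p = 0.595); 3 of these tumor samples had a purity ratio under 1.7. At mid-light the differences were 0.13 (SE 0.092) in hypothalamus and 0.056 (SE 0.10) in brain stem. Over the 3 regions Nqo1 was at 0.15 in tumor-bearing against vehicle injected mice (SE 0.057, 95% interval 0.037 to 0.27, adjusted p = 0.212). Averaged over both times, no marker of the cell type lists was called for tumor status in any region.

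**Figure D4:**
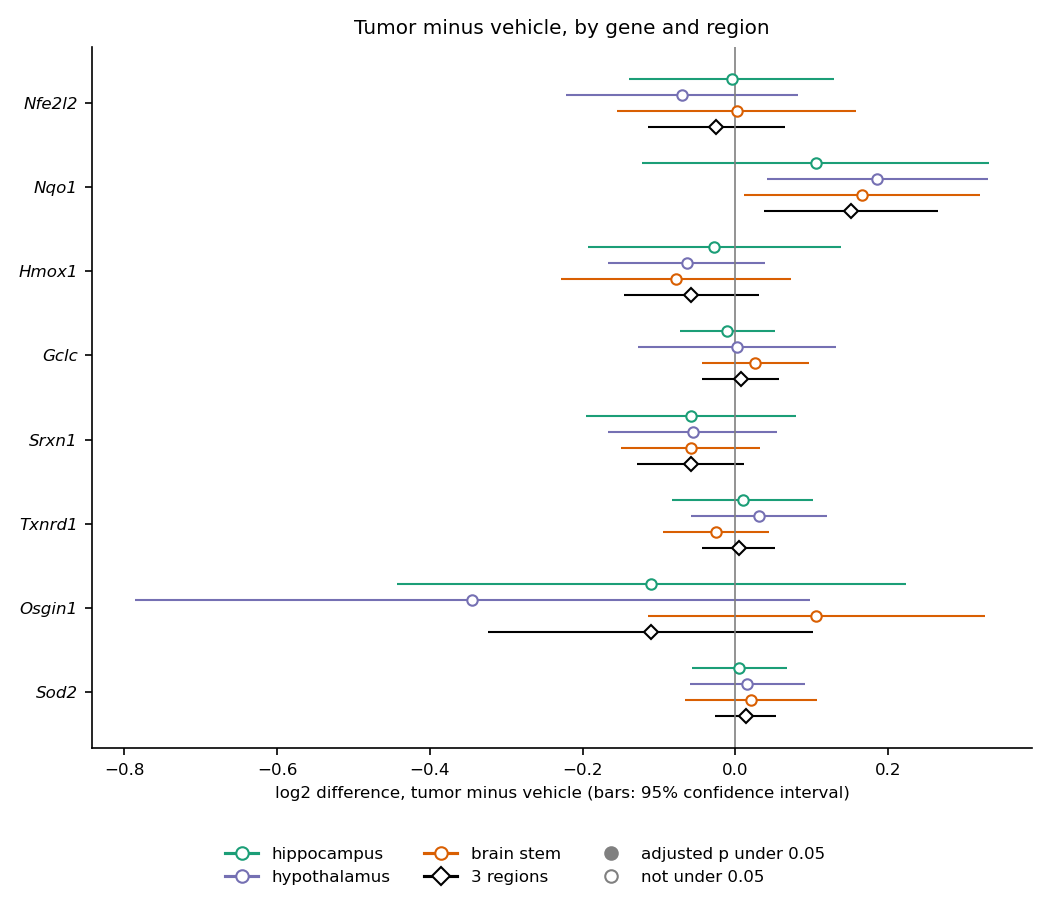
Log2 difference between tumor-bearing and vehicle injected mice (x axis; positive means higher with tumor), averaged over both times of day, for each gene (y axis) in each region and over the 3 regions; lines are 95% confidence intervals, and open symbols have an adjusted p of 0.05 or more. No symbol is filled; Nqo1 lies to the right of 0 in all 3 regions and Sod2 stays within 0.021 of it.

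The intervals bound how far tumor status could have moved the other genes over the 3 regions. That of Nfe2l2 ran from -0.11 to 0.065, that of Hmox1 from -0.15 to 0.031, that of Gclc from -0.043 to 0.057 and that of Txnrd1 from -0.044 to 0.052. Srxn1 was at -0.059 (interval -0.13 to 0.011, adjusted p = 0.597), with negative values in all 3 regions between -0.059 and -0.056. Sod2 ran from -0.027 to 0.053. Osgin1 had the widest interval, from -0.32 to 0.10 over the 3 regions, and ran from -1.20 to 0.10 in hypothalamus at mid-dark.

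Whether the effect of the tumor differed between mid-dark and mid-light was tested as an interaction, the tumor difference at mid-dark minus that at mid-light. None of the 8 genes was called in any region or over the 3 regions. Of all genes 0% were called in each single region, and 0.13% over the 3 regions. At an unadjusted p under 0.05 the rates were 6.11%, 2.6%, 3.64% and 5.71%, and 1 member passed in these 4 comparisons, Gclc over the 3 regions (0.11, SE 0.050, adjusted p = 0.809). Its largest regional value was in hypothalamus, at 0.23 (SE 0.12), where mid-dark lay 0.22 below mid-light in vehicle injected mice and 0.010 above it in tumor-bearing mice. Nfe2l2 was at -0.24 (SE 0.13, adjusted p = 0.705) in hippocampus, and Srxn1 at -0.19 (SE 0.10) in hypothalamus.

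Other genes of the pathway were taken from 4 lists, whose genes were in part in the table. Of the partners and regulators of Nrf2, Maff and Sqstm1 are described here, and of further antioxidant genes and Nrf2 targets 5 of 19 were measured (Prdx1, Gstm1, Abcc3, Sesn1 and Sesn2). Of oxidant producers 2 of 8 were measured (Ncf1 and Rac2), and of genes for the repair of oxidized bases 3 of 5 (Ogg1, Nthl1 and Apex1). For tumor status and for the interaction, none of these named genes was called in any region or over the 3 regions.

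For time of day 1 of them was called, Prdx1, while 13.5% of all genes were called over the 3 regions. Prdx1 is the gene of a peroxiredoxin that reduces hydrogen peroxide and whose overoxidized form sulfiredoxin repairs. Prdx1 fell by 0.095 at mid-dark over the 3 regions (SE 0.033, adjusted p = 0.0495), and its regional values, none of them called, were -0.10 (hippocampus), -0.072 (hypothalamus) and -0.11 (brain stem). This was the opposite direction to Srxn1. The call held without any one of mice 1, 5, 6 and 19 and was lost without any one of the other 16, and without the samples of low purity (-0.086, adjusted p = 0.102). The median difference over the 5 further antioxidant genes was -0.022, over the 2 oxidant producers -0.020 and over the 3 repair genes -0.094, beside 0.0070 over all genes. The repair genes did not share a direction. Mean Ogg1 and Apex1 were lower at mid-dark in each region, and mean Nthl1 was higher, such as 7.20 against 7.06 in brain stem.

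Maff, a small Maf partner of Nrf2, was at 5.23 ± 0.35 (SD, n = 20) in hippocampus, 6.05 ± 0.24 (n = 19) in brain stem and 6.20 ± 0.20 (n = 17) in hypothalamus. In hypothalamus at mid-dark it was at -0.42 in tumor-bearing against vehicle injected mice (SE 0.10, adjusted p = 0.451). Sqstm1, which encodes an autophagy receptor that can take Keap1 away from Nrf2, had its lowest level in hippocampus too, at 13.02 ± 0.092, with 13.30 ± 0.069 in brain stem and 13.64 ± 0.065 in hypothalamus. Its difference over the 3 regions was 0.0089 (SE 0.024) for time of day and 0.026 (SE 0.024) for tumor status.

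The genes most like each of 4 members were found by Pearson's r over 56 samples after the mean of each region was subtracted. These samples share mice and a common normalization, and r is given as a description. Differences between the times of day were not subtracted and can add to r. Nqo1 was most like Mr1 (0.72), Lamp2 (0.72) and Pdpn (0.68). Its r with Pdpn, the gene of podoplanin, was 0.88 within hippocampus, 0.41 within hypothalamus and 0.64 within brain stem. Among the closest genes to Srxn1 were Pik3cb (0.60) and Rad51c (0.56). Gclc was closest to Optn (0.54), Ncaph (0.51) and Nlgn2 (0.47), and Nfe2l2 to Agt (0.52), Map1lc3a (0.49) and Tcirg1 (0.49). The r of Nfe2l2 with Nqo1 was 0.18, with Hmox1 0.14, with Gclc 0.0100, with Srxn1 -0.18 and with Txnrd1 -0.20. Between other members, the r of Gclc with Srxn1 was -0.41 and that of Srxn1 with Txnrd1 0.42, over samples of both times of day.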

How the data were processed

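RNA of 3 regions was counted on the Mouse Neuroinflammation Panel v1 (nanoString), in hippocampus, hypothalamus and brain stem of 20 mice. The deposited values are log2 expression. In nSolver v3 the authors subtracted background and scaled to positive controls and, by geometric means, to the content of the probe set. They then quantile normalized in Partek GS v6.6. These steps remove differences in total signal between samples and allow only relative changes to be read. Counts and depth were not used here, so no counting intervals are given.

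The labels gave every sample its group. Differences were fitted with limma 3.58.1 in R 4.3.3, per region on the 4 group means and over the 3 regions on 12 group means with the mouse as a random block (consensus correlation 0.136), since the 3 samples of a mouse share its number in the labels. P-values were two-sided, moderated and adjusted by Benjamini-Hochberg over all genes tested, with a threshold of 0.05. Replicates are mice of 1 experiment. Scripts were tested on simulated data.

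The members, pathway lists, marker lists and tests were chosen with earlier results of these data known. All measured members are named whatever their values, as are Maff, Sqstm1 and Prdx1 and any listed pathway gene that was called. Keap1, Sod1 and the 4 samples that the labels call outliers were not analysed here, and 2 further genes that the rules name are not reported here. Alternatives were sample medians subtracted, centring on 13 reference genes, only genes whose log2 values average 5 or more, ordinary p-values, a purity ratio of at least 1.7, quantile normalization within a region, only the 2 groups compared, no mouse block, vehicle injected mice only for regions, and each mouse left out. Covariates for Ttr and for myelin genes were chosen after seeing the data.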

Additional observations from a re-analysis of the deposited data

Results flagged for a closer look

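Among the 88 sets of 4 or 5 samples that one gene gave in one group, 1 held a sample that stood far from the others by Dixon's test, which chance does in about 1 of 20 sets. This was Hmox1 in brain stem of tumor-bearing mice at mid-light, where the lowest of 5 samples was at 7.16 and the others were between 7.49 and 7.59.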

How the results depend on the processing

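The counts of called members gave 643 values under the alternatives, of which 613 stayed within 1.5 times their main count, and the 57 differences of named genes gave 1530 values, of which 1454 kept their direction and their side of the threshold. The count for tumor status and for the interaction was 0 under every alternative run. Over the 3 regions, Srxn1 (0.12 to 0.16, adjusted p at most 0.0263) and Gclc (-0.11 to -0.084, adjusted p at most 0.0320) kept their call for time of day in all 26 alternatives. For time of day in hippocampus (1 member, Nqo1), the count was 0 when centred on the reference genes, with ordinary p-values and with the oligodendrocyte marker level as a covariate, and 0 to 1 without each mouse in turn. In brain stem (1 member, Gclc) it was 0 when centred on the reference genes, without samples of low purity and with the oligodendrocyte marker level as a covariate, 2 with ordinary p-values, and 0 to 1 without each mouse in turn. Brain stem against hypothalamus called 2 members in vehicle injected mice only, which leaves fewer samples, 7 when centred on the reference genes, 5 without mouse 11, 29 or 32, and 6 under the other alternatives. Txnrd1 in that pair turned to 0.029 when centred on the reference genes. Without the mouse as a block, 4 members were called for time of day over the 3 regions in place of 3, Txnrd1 being added at 0.059 (adjusted p = 0.0442), and no call was lost. The oligodendrocyte marker level was itself lower at mid-dark in hippocampus and brain stem, so that covariate cannot be fully separated from time of day. Other than where a construction is named, the cause was not tested. The number of mice limits the precision, most for Osgin1, and shared values after quantile normalization limit Sod2.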
